A study of Rattus norvegicus with 11 samples.

Results

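Transcripts of the interleukin 6 family and of its signal transducer STAT3 were followed in the rat striatum after intracerebral hemorrhage. The group comprised 10 genes chosen by symbol, namely the cytokines Il6, Lif, Osm and Il11, the receptor chains Il6r, Il6st, Lifr and Osmr, the transcription factor Stat3 and its feedback inhibitor Socs3. All 10 were found among the 30560 genes of the deposited count table, and 9 of them were among the 15742 genes with enough counts to be tested. Il11 was the one left out.

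RNA of the striatum was sequenced at day 3 from 11 adult male Sprague-Dawley rats, with 1 library per rat. IC, the common and milder hemorrhage (3 rats), followed a stereotaxic injection of 0.2 U collagenase VII-S in 1.0 μL saline into the right striatum, where the enzyme opens vessel walls and blood leaks into the tissue. IS, the severe hemorrhage (3 rats), followed 0.6 U in 3.0 μL, so the injected volume rose with the dose. IS-HA (3 rats) received the IS dose and had 150 μL of the hematoma drawn off through a catheter at 6 h, and IS-HA rats therefore also underwent a second procedure. Normal rats (2 rats) received neither collagenase nor aspiration, and no saline-injected rats were analysed here, and so the needle track and the enzyme cannot be told apart from the bleeding. Tissue came from the injected side, or from the matching region in Normal rats. The study compared severities of bleeding and asked what hematoma removal changes, which sets IS against IC and IS-HA against IS, and each hemorrhage group was also set against Normal.

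Interleukin 6 type cytokines act through shared receptors. Interleukin 6 binds its own receptor chain, encoded by Il6r, and interleukin 11 binds a related chain, and both then engage the common chain gp130, encoded by Il6st. Leukemia inhibitory factor (Lif) signals through a pair of gp130 and the receptor encoded by Lifr. Oncostatin M (Osm) can signal through a pair of gp130 and the receptor encoded by Osmr. Janus kinases bound to these chains phosphorylate STAT3, which enters the nucleus and switches on target genes, among them Socs3, whose product binds gp130 and the kinases and ends the signal. In injured brain the pathway is known for driving the reactive state of astrocytes and the acute phase response.

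The counts assigned to genes summed to between 6701301 and 18817645 per library, so that 3 counts, taken as the floor of detection, stood at 0.159 to 0.448 CPM (counts scaled to library size). These floors cover counting error only. The library labelled IS-HA replicate 2 was the smallest and stood apart: across genes its log2 CPM correlated at 0.908 and 0.916 with the other two IS-HA libraries, against 0.982 between those and 0.951 to 0.983 within the other groups. Results that rest on it are given with and without it. The labels say only that the rats are separate animals of a group, and no litter or surgery day is given. Defining markers of the striatum were present in every library. The summed TPM (transcript level, as counts per length scaled to the same sum in each rat) of 5 medium spiny neuron markers lay between 1207 and 5635.

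Cell type markers moved with the hemorrhage, and their values stand here because they go alongside most results that follow. The summed TPM of 8 microglia and macrophage markers was 179 to 224 in Normal, 1212 to 1727 in IC, 1790 to 3065 in IS and 1464 to 2189 in IS-HA. The summed TPM of 6 neutrophil markers was 4.91 to 5.11 in Normal, 83.3 to 267 in IC, 494 to 696 in IS and 168 to 858 in IS-HA, where replicate 2 held the highest value. The transcript of Mpo, a granule enzyme of neutrophils, was at 0 in every Normal, IC and IS rat and in IS-HA replicate 2. The 5 neutrophil markers tested all passed as higher against Normal in IC, IS and IS-HA. The study reported raised MPO protein in IS by Western blot, which is another measure than the transcript. The summed TPM of 5 neuron markers moved in the other direction, at 1900 to 2634 in Normal and 288 to 994 in IS, and 6 astrocyte markers summed to 2734 to 2757 in Normal and 928 to 2050 in IS. The part of these shifts in the results below was not tested. In bulk tissue, fewer cells of a type and less RNA per cell cannot be told apart.

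**Figure D1:**
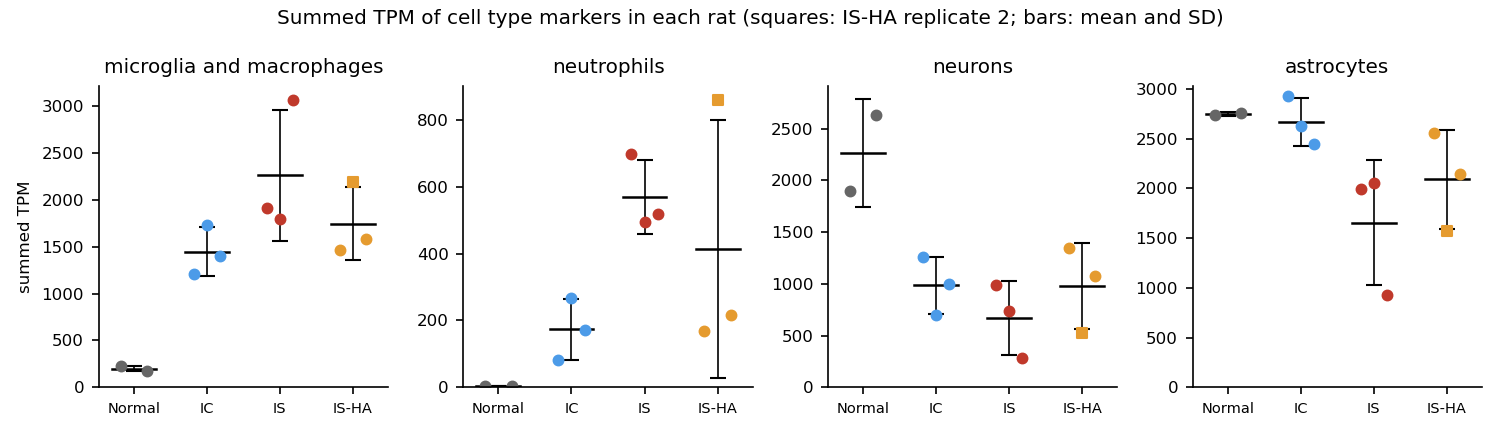
Summed TPM of 4 marker lists in each rat of the 4 groups, with points for rats, a square for IS-HA replicate 2, and bars for the mean and SD. Microglia and macrophage markers were at most 224 in Normal and at least 1212 in every hemorrhage rat, and IS-HA replicate 2 had the highest neutrophil sum, 858.

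Gene length also moved with the groups. Against Normal, the median log2 fold change of the 1574 shortest tested genes was 0.66 in IS and that of the 1575 longest was -0.69. The same medians were 0.32 and -0.35 in IC, 0.66 and -0.49 in IS-HA, 0.33 and -0.32 between IS and IC, and 0.00 and 0.18 between IS-HA and IS. Among the tested members Il6st was the longest, at percentile 94.9 of the tested genes, followed by Stat3 at 84.3, Osmr at 79.4 and Il6r at 75.4, and Osm was the shortest at 23.5.

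The promoters of Il6 and Il11 are shown because only their windows, among the members with one, start at the outermost annotated start of the gene. These cytokines also behaved differently, and a link of the sequences to the levels was not tested. Il6 was counted in all 9 hemorrhage rats and in neither Normal rat, whereas Il11 reached at most 1 count in any rat. Each sequence is the 250 bases upstream of the annotated start in RefSeq's GRCr8 assembly, and capitals mark matches to motifs searched on both strands.
Il6, chr4:5894576-5894825, minus strand: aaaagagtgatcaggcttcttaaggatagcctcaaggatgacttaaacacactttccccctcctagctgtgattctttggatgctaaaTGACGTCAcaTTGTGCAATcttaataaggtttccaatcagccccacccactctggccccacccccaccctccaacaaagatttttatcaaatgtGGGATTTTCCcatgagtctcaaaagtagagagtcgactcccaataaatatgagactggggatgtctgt
Il11, chr1:78098372-78098621, plus strand: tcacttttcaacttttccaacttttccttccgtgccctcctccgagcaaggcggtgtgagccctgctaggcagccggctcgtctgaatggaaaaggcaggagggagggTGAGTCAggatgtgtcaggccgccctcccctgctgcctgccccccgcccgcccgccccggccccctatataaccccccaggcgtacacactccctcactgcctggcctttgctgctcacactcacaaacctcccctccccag
The Il6 window held a cAMP response element (TGACGTCA) at -162 to -155, a C/EBP motif (TTGTGCAAT) at -152 to -144 and a kappa B motif at -68 to -59, counted from the start, and these do not overlap. The Il11 window held an AP-1 motif (TGAGTCA) at -142 to -136. Of the 33469 promoters of the same length, 1.59% held the cAMP response element, 0.152% this C/EBP motif, 0.314% the kappa B motif, in which the base after the first GGGA is free, and 4.05% the AP-1 motif. A STAT motif (TTCNNNGAA), present in 7.67% of promoters, was in neither window. These are matches of letters and no binding was measured.

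Most members of the family rose after hemorrhage. Against Normal, 7 members rose and 1 fell in IC, the same numbers held in IS, and 7 rose and none fell in IS-HA, by edgeR's quasi-likelihood test at an adjusted p under 0.05. Il6, Lif, Osm, Il6r, Osmr, Stat3 and Socs3 rose in all 3 comparisons, Lifr fell in IC and IS, and Il6st passed the test in none. Without Normal replicate 3 only 4 members passed in IC. Over all tested genes, 13.0% rose and 4.64% fell in IC, 24.8% rose and 24.2% fell in IS, and 19.5% rose and 12.1% fell in IS-HA. The median log2 fold change of the 9 tested members was 2.17 in IC, 3.07 in IS and 2.42 in IS-HA, or 2.01, 3.07 and 2.19 with Il6 at its lower bound, against medians over all genes of 0.00, 0.02 and 0.06. The 3 comparisons share the 2 Normal rats.

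**Figure D2:**
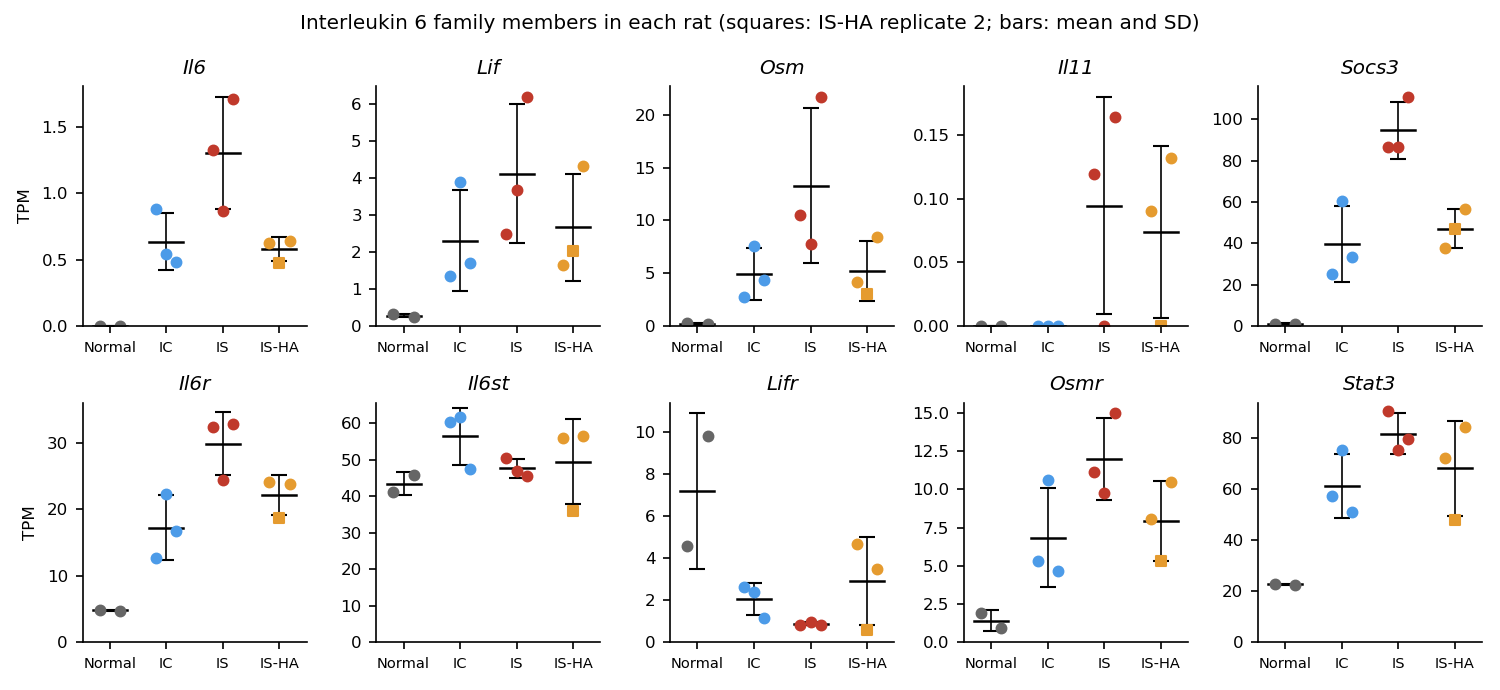
TPM of the 10 members in each rat by group, with points for rats, a square for IS-HA replicate 2, and bars for the mean and SD; each panel has its own axis from 0. Socs3 stood at about 1 in Normal and at 25.3 or more in every hemorrhage rat, Lifr went the other way, and Il6st lay between 36.0 and 61.6 in all rats.

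Among the cytokines, Il6 (ENSRNOG00000010278), the name-giving ligand that drives the acute phase response, was a low transcript. It had 0 counts in both Normal rats, 14, 11 and 6 counts in IC replicates 2, 3 and 4, 16, 11 and 15 counts in IS replicates 2, 3 and 4, and 10, 4 and 7 counts in IS-HA replicates 1, 2 and 3. In TPM these were 0.878, 0.543 and 0.484 in IC, 1.33, 0.869 and 1.71 in IS, and 0.625, 0.478 and 0.642 in IS-HA. Every hemorrhage rat was thus above both Normal rats, with few reads behind each value. Taking 3 counts per Normal library as the floor, Il6 was at least 4.03-fold higher in IC, at least 8.67-fold higher in IS and at least 3.77-fold higher in IS-HA. The edgeR adjusted p was 0.00244, 0.00032 and 0.00223.

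Osm (ENSRNOG00000024390), a cytokine made mainly by myeloid cells, had the highest mean TPM of the 4 member cytokines in each hemorrhage group. It stood at 0.283 and 0.145 TPM in the Normal rats, at 2.75, 7.55 and 4.40 in IC, at 10.5, 7.78 and 21.7 in IS, and at 4.16, 3.02 and 8.42 in IS-HA. No hemorrhage rat came near the Normal range, and the IS rats lay above the IC rats, by a narrow margin between IC replicate 3 and IS replicate 3. The log2 fold change against Normal was 4.38 ± 0.79 (standard error) in IC, 5.91 ± 0.80 in IS and 4.48 ± 0.80 in IS-HA (edgeR adjusted p = 0.00361, 0.00031 and 0.00248). The Normal rats had 4 and 2 counts, and the ratio of summed CPM, with an exact 95% interval for counting error, was 25.4 (11.5 to 70.2) in IC, 63.7 (28.9 to 175) in IS and 25.8 (11.6 to 71.6) in IS-HA. Without Normal replicate 3 the rise in IC no longer passed (edgeR adjusted p = 0.0633).

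Lif (ENSRNOG00000007002), a cytokine known for acting on neural stem cells and glia, followed the same course at lower levels. It stood at 0.313 and 0.249 TPM in Normal, 1.35, 3.88 and 1.69 in IC, 2.50, 3.67 and 6.19 in IS, and 1.64, 2.03 and 4.32 in IS-HA. The hemorrhage groups overlapped each other widely and did not overlap Normal. The log2 fold change against Normal was 2.95 ± 0.68 in IC, 3.87 ± 0.70 in IS and 3.18 ± 0.69 in IS-HA (edgeR adjusted p = 0.0138, 0.00139 and 0.00674). The call in IC was lost without Normal replicate 1 (edgeR adjusted p = 0.0759) or 3 (0.145), with the replicate block (0.0796) and in limma on log2(TPM + 1) (0.059), and the call in IS-HA without Normal replicate 3 (0.0762). In the GRCr8 annotation Osm and Lif lie side by side, with 0 protein-coding genes between them.

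Il11 (ENSRNOG00000017386), known for its role in fibrosis, had 0 counts in Normal and IC and 1 count each in IS replicates 2 and 4 and IS-HA replicates 1 and 3. All values lay under the floor of 3 counts, so no difference was detectable at this depth and no fold is given.

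The receptor chains split in their directions. Il6r (ENSRNOG00000020811), the chain that binds interleukin 6 itself, stood at 4.82 and 4.78 TPM in Normal, 12.7, 22.3 and 16.7 in IC, 32.3, 24.3 and 32.8 in IS, and 24.0, 18.7 and 23.8 in IS-HA. It rose 3.45-fold in IC, 6.27-fold in IS and 4.55-fold in IS-HA (log2 1.79 ± 0.25, 2.65 ± 0.26 and 2.19 ± 0.25, edgeR adjusted p = 0.00081, 5.42e-05 and 0.000222). It passed the test in all 22 alternative settings of each comparison.

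Il6st (ENSRNOG00000013963), the gp130 chain that every cytokine of the family needs, was the most abundant member in Normal tissue and did not pass against it. It stood at 41.3 and 45.8 TPM in Normal, 60.4, 61.6 and 47.5 in IC, 50.6, 46.8 and 45.6 in IS, and 56.0, 36.0 and 56.5 in IS-HA. IC lay just above Normal, and IS and IS-HA overlapped it. The log2 fold change was 0.32 ± 0.15 in IC, 0.15 ± 0.15 in IS and 0.15 ± 0.15 in IS-HA, and none passed (edgeR adjusted p = 0.17, 0.44 and 0.455). Il6st was also the member nearest to the long end of the gene lengths, and with a correction for gene length, an alternative added after the data were seen, it passed in all 3 comparisons, at 0.64 in IC, 0.80 in IS and 0.63 in IS-HA (edgeR adjusted p = 0.0163, 0.00212 and 0.0117).

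Osmr (ENSRNOG00000033192), the oncostatin M receptor chain, stood at 1.9 and 0.947 TPM in Normal, 5.31, 10.6 and 4.66 in IC, 11.1, 9.80 and 15.0 in IS, and 8.06, 5.29 and 10.5 in IS-HA. Every hemorrhage rat was above both Normal rats. The log2 fold change was 2.17 ± 0.44 in IC, 3.07 ± 0.46 in IS and 2.42 ± 0.44 in IS-HA (edgeR adjusted p = 0.00671, 0.000493 and 0.00288). Without Normal replicate 3 the call in IC was lost (edgeR adjusted p = 0.0973).

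Lifr (ENSRNOG00000011696), the receptor chain that leukemia inhibitory factor needs, was the member that fell. It stood at 4.58 and 9.80 TPM in Normal, 2.61, 2.38 and 1.18 in IC, 0.848, 0.982 and 0.833 in IS, and 4.66, 0.611 and 3.49 in IS-HA. The IS rats lay closely together below all IC and Normal rats, while IS-HA spanned from the lowest value of the series, in replicate 2, to within the Normal range, in replicate 1. Few reads stood behind the lowest values, with 14, 17 and 10 counts in IS replicates 2, 3 and 4 and 7 in IS-HA replicate 2. Lifr fell by 1.84 ± 0.53 on the log2 scale in IC and by 2.97 ± 0.58 in IS (edgeR adjusted p = 0.037 and 0.00214), and the change of -1.33 ± 0.53 in IS-HA did not pass (0.077). The call in IC was fragile. It held in 11 of 21 alternatives and was lost when Normal replicate 1 or 3, IC replicate 2, 3 or 4, IS replicate 3 or IS-HA replicate 3 was left out, with an edgeR adjusted p of 0.051 to 0.338. It was also lost with library size alone (0.0583), the replicate block (0.424) and limma (0.0864). The call in IS was lost with the replicate block (edgeR adjusted p = 0.0562). In IS-HA Lifr passed without IS-HA replicate 1 (edgeR adjusted p = 0.0388) and in DESeq2's Wald test on all rats (-1.39, adjusted p = 0.0449). The correction for gene length left the change at -1.80 in IC and -2.87 in IS.

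Lifr fell beside Lif rising, and beside Osmr rising. In GRCr8 Lifr and Osmr are neighbours on the same chromosome, with 0 protein-coding genes between them. The ratio of Osmr to Lifr TPM within a rat compares both chains per length. It was 0.416 and 0.0966 in Normal, 2.03, 4.45 and 3.95 in IC, 13.1, 9.98 and 18.0 in IS, and 1.73, 8.66 and 3.01 in IS-HA. Lifr was thus the more abundant chain in both Normal rats and Osmr in all 9 hemorrhage rats. The highest ratios rest on few Lifr counts, 10 to 17 in the IS rats and 7 in IS-HA replicate 2. On a log2 scale with 0.1 TPM added, the mean ratio was -2.23 ± 1.43 (SD, n = 2) in Normal, 1.67 ± 0.59 (n = 3) in IC, 3.59 ± 0.41 (n = 3) in IS and 1.76 ± 1.09 (n = 3) in IS-HA.

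This ratio differed without overlap between IS and IC and between IS-HA and IS, while IC and IS-HA overlapped. The log2 difference was 1.93 for IS against IC and -1.84 for IS-HA against IS, each with a two-sided exact permutation p of 0.1, the smallest that 3 against 3 rats can give. Without IS-HA replicate 2, whose ratio lay closest to IS, the second difference was -2.42.

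**Figure D3:**
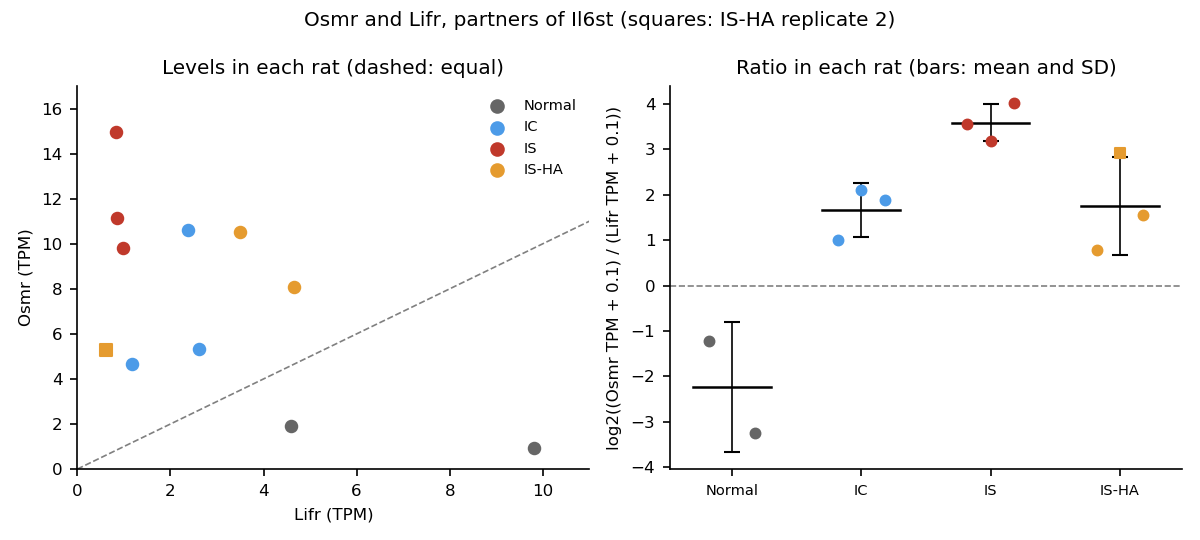
Left, Osmr against Lifr TPM in each rat, with a dashed line where both are equal; right, the log2 ratio in each rat by group with the mean and SD, and a square for IS-HA replicate 2. Both Normal rats lie below the line and all hemorrhage rats above it, with the IS rats highest.

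Stat3 (ENSRNOG00000019742), the transcription factor at the end of these receptors and itself one of its own targets, stood at 22.9 and 22.6 TPM in Normal, 57.4, 75.3 and 51.0 in IC, 90.6, 75.3 and 79.6 in IS, and 72.3, 47.9 and 84.4 in IS-HA. All hemorrhage rats lay well above both Normal rats. Stat3 rose 2.57-fold in IC, 3.63-fold in IS and 2.92-fold in IS-HA (log2 1.36 ± 0.19, 1.86 ± 0.20 and 1.54 ± 0.19, edgeR adjusted p = 0.000863, 7.97e-05 and 0.000337). It passed in all 22 alternatives of each comparison. The counts measure its transcript, and phosphorylated STAT3 protein was not analysed here.

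Socs3 (ENSRNOG00000063373), the feedback inhibitor, had the largest change that can be given as a fitted fold among the members. It stood at 1.13 and 0.886 TPM in Normal, 25.3, 60.4 and 33.3 in IC, 86.9, 86.7 and 111 in IS, and 37.7, 47.1 and 56.5 in IS-HA. The IS rats lay above every IC and every IS-HA rat, and IC and IS-HA overlapped. Socs3 rose 37.2-fold in IC, 94.8-fold in IS and 46.1-fold in IS-HA (log2 5.22 ± 0.45, 6.57 ± 0.48 and 5.53 ± 0.46, edgeR adjusted p = 0.000115, 3.13e-05 and 6.44e-05), and passed in all 22 alternatives of each comparison.

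**Figure D4:**
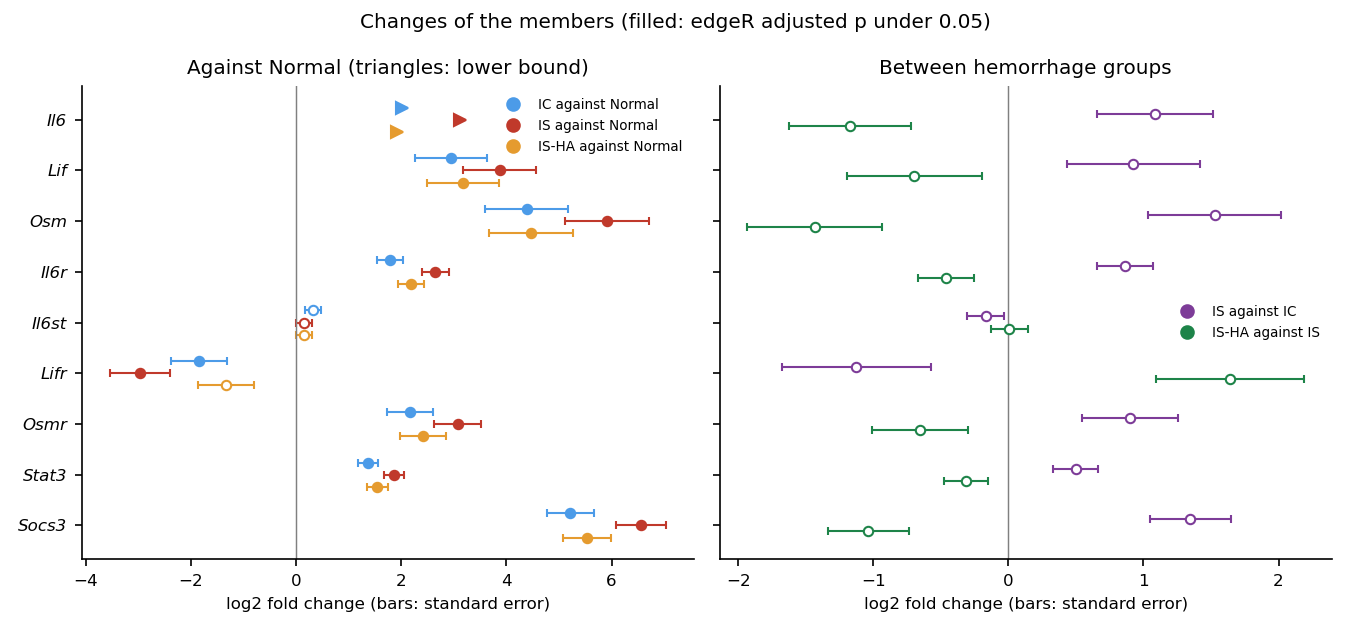
Log2 fold change of the 9 tested members with its standard error, against Normal on the left and between hemorrhage groups on the right; filled points passed edgeR at an adjusted p under 0.05, and triangles are lower bounds for Il6. Against Normal 7 members rose in each group and Lifr lay below 0, and between hemorrhage groups no point is filled.

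The order of the members by level changed accordingly. In Normal tissue the mean TPM ran from Il6st (43.5) over Stat3 (22.7), Lifr (7.19), Il6r (4.80), Osmr (1.43), Socs3 (1.01), Lif (0.281) and Osm (0.214) to Il6 and Il11 at 0. The rats' values overlapped between Lifr and Il6r, between Osmr and Socs3 and between Lif and Osm. In IS the order was Socs3 (94.8), Stat3 (81.9), Il6st (47.7), Il6r (29.8), Osm (13.3), Osmr (12.0), Lif (4.12), Il6 (1.30), Lifr (0.887) and Il11 (0.0946), with overlaps between Socs3 and Stat3, between Osm and Osmr and between Il6 and Lifr. Socs3 thus moved from below both Il6r and Lifr to the level of Stat3, and Lifr from the third place to the ninth.

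With the severity of bleeding, Il6, Lif, Osm, Il6r, Osmr, Stat3 and Socs3 were higher in IS than in IC in their means, and Lifr was lower, but no member passed the test. The log2 difference of IS to IC was 1.53 ± 0.50 for Osm, 1.35 ± 0.30 for Socs3, 1.09 ± 0.43 for Il6, 0.93 ± 0.50 for Lif, 0.90 ± 0.35 for Osmr, 0.86 ± 0.21 for Il6r, 0.50 ± 0.16 for Stat3, -0.17 ± 0.14 for Il6st and -1.13 ± 0.55 for Lifr, with edgeR adjusted p from 0.143 to 0.454. Over all genes 0.0% passed in either direction, while 3498 genes and 6 members had an unadjusted p under 0.05. Osm, Il6r, Stat3 and Socs3 were higher in every IS rat than in every IC rat and Lifr was lower, where 15.4% of all tested genes were higher and 18.0% lower without overlap. For Stat3 the highest IC and the lowest IS rat both stood at 75.3 TPM. Microglia and macrophage markers and neutrophil markers were also higher in every IS rat than in every IC rat in their sums, and 0 of 8 and 0 of 5 tested passed.

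Whether members passed here depended on the rats fitted and on the test. Without IS-HA replicate 2, which enters the comparison through the shared estimate of spread, the filter and the scaling, Socs3, Il6r and Stat3 passed between IS and IC (edgeR adjusted p = 0.0256, 0.0294 and 0.0435) at differences of 1.35, 0.86 and 0.50, where 6.38% of all genes were then higher and 7.71% lower. DESeq2's Wald test on all rats called these and Osm (adjusted p = 0.0047, 0.00986, 0.0417 and 0.048 for Socs3, Il6r, Stat3 and Osm), where 3.17% of genes were higher and 3.41% lower. With edgeR fitted to the IC and IS rats alone, which also leaves out IS-HA replicate 2, no member passed.

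After aspiration the direction was the opposite for most members, and again none passed. The log2 difference of IS-HA to IS was -1.43 ± 0.50 for Osm, -1.17 ± 0.45 for Il6, -1.04 ± 0.30 for Socs3, -0.70 ± 0.50 for Lif, -0.65 ± 0.35 for Osmr, -0.46 ± 0.21 for Il6r, -0.32 ± 0.16 for Stat3, 0.00 ± 0.14 for Il6st and 1.64 ± 0.55 for Lifr, with edgeR adjusted p from 0.507 to 0.996. Of all tested genes 0.00635% passed as higher and 0.0% as lower, and 1408 genes and 5 members had an unadjusted p under 0.05. DESeq2's Wald test called 0 members, where 0.331% of all genes were higher and 0.139% lower, and gave Il6 no adjusted p. Il6, Il6r and Socs3 were lower in every IS-HA rat than in every IS rat, where 6.37% of all genes were lower and 3.6% higher without overlap. This comparison uses the same IS rats as the one with IC, so high values in IS move both.

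Lifr was the one member with a call here, and only without IS-HA replicate 2. Its difference was then 2.05 (edgeR adjusted p = 0.0376), where 3.4% of all genes were higher and 0.975% lower, and Socs3 stood at -1.17 (0.0623). In IS-HA replicate 2 Lifr stood at 0.611 TPM beside a neuron marker sum of 527 and an astrocyte marker sum of 1570, and in replicates 1 and 3 at 4.66 and 3.49 TPM beside neuron sums of 1346 and 1073 and astrocyte sums of 2559 and 2149. In IC Lifr stood at 1.18 to 2.61 TPM beside neuron sums of 703 to 1258 and astrocyte sums of 2449 to 2928. The same values were 4.58 to 9.80 TPM, 1900 to 2634 and 2734 to 2757 in Normal. In IS they were 0.833 to 0.982 TPM, 288 to 994 and 928 to 2050. The part of these cells in the Lifr values was not tested.

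Other genes of the pathway were described by a list. Of 24 further ligands, receptors, kinases and regulators, 23 were found and 20 tested. Against Normal, 2 rose and 1 fell in IC, 7 rose and 2 fell in IS, and 8 rose and 1 fell in IS-HA, beside the shares over all genes given above. Their median log2 fold change was 0.47, 0.51 and 0.22. The counts turned on the Normal rats, since without Normal replicate 3 they were 1 in IC, 4 in IS and 0 in IS-HA.

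Adam17, the protease that sheds the interleukin 6 receptor from cells, rose in all 3 comparisons, by 1.06 ± 0.22, 1.49 ± 0.23 and 1.03 ± 0.22 on the log2 scale (edgeR adjusted p = 0.00853, 0.000598 and 0.0067). Its levels were 19.2 and 15.8 TPM in Normal, 33.7, 47.0 and 34.3 in IC, 46.3, 41.7 and 57.9 in IS, and 37.5, 32.0 and 40.1 in IS-HA, without overlap with Normal. Adam10, the other sheddase listed, did not pass, at 0.40 ± 0.38, 0.21 ± 0.38 and 0.23 ± 0.38. Stat5a, a STAT factor of other cytokine receptors, rose by 1.27 ± 0.26, 1.9 ± 0.27 and 1.33 ± 0.26 (edgeR adjusted p = 0.00723, 0.000365 and 0.00413), while its close relative Stat5b stayed at 0.06 ± 0.23, 0.22 ± 0.23 and -0.04 ± 0.23 without passing, and passed in IS with the correction for gene length (0.58, edgeR adjusted p = 0.0194). How reads shared by these similar genes were counted is not given in the sources used here.

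In IS and IS-HA the largest changes past the test were those of Stat6, a STAT factor of interleukin 4 signaling (3.48 ± 0.92 and 2.93 ± 0.92, edgeR adjusted p = 0.0101 and 0.0336), Ebi3, a subunit of interleukin 27 (2.86 ± 0.56 and 2.08 ± 0.55, 0.00219 and 0.0169), and Socs1, an inhibitor of Janus kinases (2.18 ± 0.50 and 1.81 ± 0.50, 0.00496 and 0.0202). These folds rest on low Normal levels, since Normal replicates 1 and 3 had 10 and 5 counts of Stat6, 18 and 39 of Ebi3 and 13 and 6 of Socs1. Without IS-HA replicate 2, which had the second highest Stat6 level of all rats at 3.66 TPM, Stat6 did not pass in IS-HA (edgeR adjusted p = 0.087). Ptpn11, a phosphatase that docks to gp130, fell by 0.73 ± 0.23 in IS (edgeR adjusted p = 0.0216) and did not with the correction for gene length (0.168). The kinases Jak1 and Jak2 passed against Normal in no group, at 0.14 ± 0.20, 0.33 ± 0.20 and 0.21 ± 0.20 for Jak1 and -0.17 ± 0.25, -0.18 ± 0.25 and -0.47 ± 0.25 for Jak2. With the correction for gene length Jak1 passed in IS at 0.82 and in IS-HA at 0.56 (edgeR adjusted p = 0.0021 and 0.0223). Tyk2, the related kinase, rose in IS by 0.86 ± 0.24 (edgeR adjusted p = 0.014). Cntf, the ciliary neurotrophic factor of astrocytes, its receptor chain Cntfr and the inhibitor Pias3 stood at 0.78 ± 0.32, -0.68 ± 0.37 and -0.13 ± 0.26 in IS without passing. Cntf rose by 1.17 ± 0.32 in IS-HA (edgeR adjusted p = 0.0192), where replicate 2 had its highest level at 33.4 TPM. The call held in 16 of 22 alternatives. It was lost with the correction for gene length (0.59, edgeR adjusted p = 0.074), and without IS-HA replicate 2 the change was 0.82 (0.0276). In that last setting and in DESeq2 Cntf also passed in IS (adjusted p = 0.0112 and 0.0444).

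Between hemorrhage groups 0 of these 20 genes passed, with 4 unadjusted p-values under 0.05 in each comparison and 0 calls by DESeq2. Of them, 12 were above 0 and 8 below in IS against IC, and 8 above and 12 below in IS-HA against IS. The largest difference after aspiration was that of Clcf1, a ligand of the ciliary neurotrophic factor receptor, at -1.22 ± 0.32 (edgeR adjusted p = 0.499), which was singled out after its values were seen. It stood at 13.7, 27.1 and 26.4 TPM in IS and 7.85, 9.74 and 12.2 in IS-HA, below both Normal rats at 16.0 and 16.9. Against Normal its change in IS-HA, -0.74 ± 0.35, did not pass (edgeR adjusted p = 0.121), nor in any of 22 alternatives.

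Most textbook target genes of STAT3 rose against Normal. Of 20 targets, all tested, 14 rose and none fell in IC, 15 rose and none fell in IS, and 14 rose and 1 fell in IS-HA, beside the shares over all genes given above. Their median log2 fold change was 2.28, 3.10 and 2.77. The count in IC was 9 without Normal replicate 1 and 9 without Normal replicate 3. Other factors also drive these genes, and the list names them without testing what STAT3 did. The largest changes were those of secreted and acute phase genes. Lcn2, which encodes the iron-siderophore carrier lipocalin 2, rose by 7.37 ± 0.49, 7.42 ± 0.49 and 7.57 ± 0.49 on the log2 scale (edgeR adjusted p = 4.48e-05, 3.13e-05 and 5.55e-05). Timp1, an inhibitor of matrix metalloproteinases, rose by 6.0 ± 0.57, 6.83 ± 0.59 and 6.48 ± 0.58 (edgeR adjusted p = 0.000126, 3.57e-05 and 7.96e-05).

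Serpina3n, a serine protease inhibitor of reactive astrocytes, had 2 and 0 counts in Normal, so its change is given as a ratio of summed CPM with its exact 95% counting interval. It was 503 (139 to 4160) in IC, 1547 (428 to 12784) in IS and 624 (172 to 5155) in IS-HA, with wide spread between rats, from 5.96 to 122 TPM over the hemorrhage groups. Single rats carried much of each sum, since IC replicate 4 held 853 of 1246 counts, IS replicate 2 held 2009 of 2526 and IS-HA replicate 2 held 809 of 1110. Without these rats the ratio was 210 (57.7 to 1739) in IC, 504 (139 to 4170) in IS and 214 (58.7 to 1775) in IS-HA. It was 2325 in IS without IS replicate 3 and 1044 in IS-HA without IS-HA replicate 1. Bcl3, a nuclear partner of NF-kappa B, rose by 3.78 ± 0.54, 4.93 ± 0.56 and 4.00 ± 0.54 (edgeR adjusted p = 0.000899, 0.00011 and 0.000522). Gfap, the filament protein of reactive astrocytes, rose by 3.42 ± 0.32, 3.15 ± 0.31 and 3.11 ± 0.31 (edgeR adjusted p = 0.000122, 5.96e-05 and 0.000108). Beside it, 0 of 6 astrocyte markers rose in any comparison against Normal and Slc1a2, a glutamate transporter, fell in all 3.

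The early response genes Junb and Fos, the hypoxia factor Hif1a and the survival gene Bcl2l1 did not pass against Normal in any group, with log2 fold changes between -0.40 and 0.36. With the correction for gene length Junb passed as lower in IS-HA (-0.58, edgeR adjusted p = 0.0399). Vegfa, an endothelial growth factor, was the one target that fell, in IS-HA, by 0.73 ± 0.24 (edgeR adjusted p = 0.0421). That call held in 9 of 22 alternatives and was lost without IS-HA replicate 2 (0.089), and Vegfa stood at -0.39 ± 0.24 in IC and -0.38 ± 0.24 in IS without passing.

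**Figure D5:**
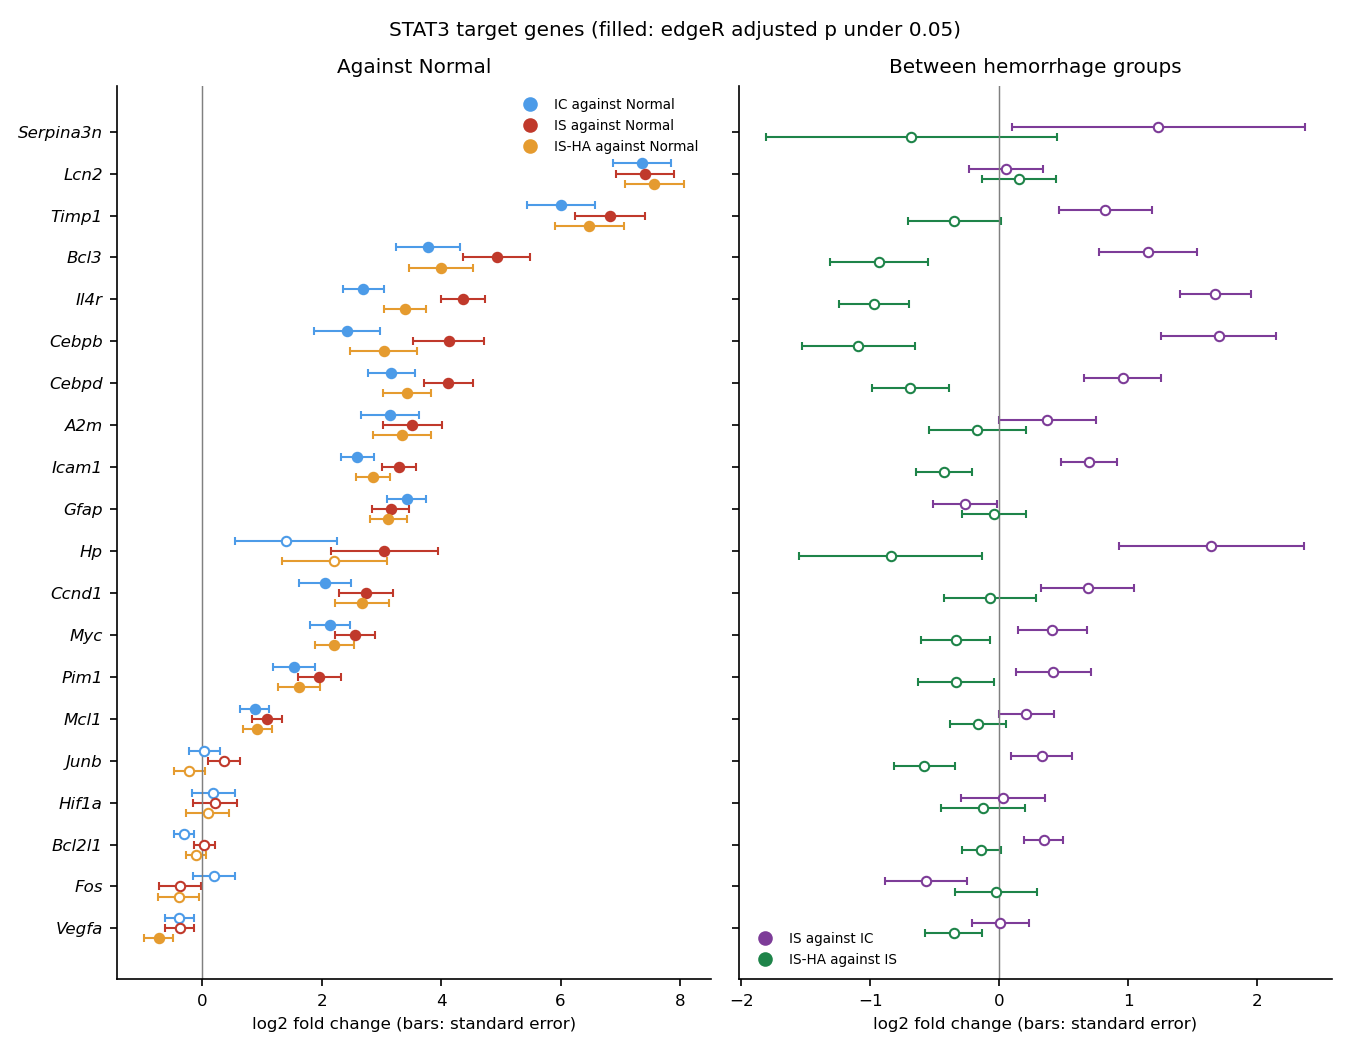
Log2 fold change of 20 STAT3 target genes with its standard error, against Normal on the left, where Serpina3n is not drawn because its Normal rats had 2 and 0 counts, and between hemorrhage groups on the right; filled points passed edgeR at an adjusted p under 0.05. Against Normal 14 or 15 genes rose in each group, and between hemorrhage groups no point is filled.

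Between IS and IC the targets leaned upward and between IS-HA and IS downward, without a gene passing. In IS against IC, 18 of 20 were above 0, at a median of 0.42, and 7 were higher in every IS rat, namely Bcl3, Cebpb, Cebpd, Bcl2l1, Hp, Icam1 and Il4r (edgeR adjusted p from 0.143 over the 20), where 15.4% of all tested genes were higher without overlap. Fos and Gfap were below 0, at -0.57 ± 0.32 and -0.26 ± 0.25. In IS-HA against IS, 19 of 20 were below 0, at a median of -0.34, and Bcl3, Junb, Cebpb, Cebpd, Icam1 and Il4r were lower in every IS-HA rat (edgeR adjusted p from 0.499), where 6.37% of all genes were lower without overlap. Lcn2 was the exception at 0.15 ± 0.29. The medians over all tested genes were -0.001 in IS against IC and 0.045 in IS-HA against IS, and the shares of all genes above and below 0 were not counted. Both comparisons share the IS rats, and 8 and 5 of the 20 had an unadjusted p under 0.05.

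Il4r, the interleukin 4 receptor chain, and Cebpb, a transcription factor of the acute phase response, showed the pattern most clearly in single rats. Il4r stood at 28.5, 56.1 and 41.4 TPM in IC, 133, 109 and 140 in IS, and 56.3, 71.5 and 68.2 in IS-HA. Cebpb stood at 11, 20.2 and 16.9 in IC, 41.8, 41.3 and 64.7 in IS, and 12.3, 36.1 and 19.6 in IS-HA. Without IS-HA replicate 2, Il4r, Cebpb, Cebpd, Icam1 and Timp1 passed in IS against IC as higher (edgeR adjusted p = 0.0208, 0.0214, 0.0318, 0.0467 and 0.044), where 6.38% of all genes were higher and 7.71% lower. In the same setting Cebpb, Junb and Il4r passed as lower in IS-HA against IS (edgeR adjusted p = 0.0376, 0.0448 and 0.045), where 0.975% of all genes were lower and 3.4% higher. DESeq2's Wald test called Cebpb, Cebpd, Icam1 and Il4r as higher in IS against IC, where 3.17% of genes were higher and 3.41% lower, and 0 targets in IS-HA against IS.

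The tested genes whose pattern over the 11 rats was most like each member were found by the root mean square (RMS) difference of log2 CPM, each gene centred on its mean. For Socs3 these were Cd14 (0.220), a receptor of myeloid cells for bacterial lipopolysaccharide, Igsf6 (0.274) and Lrrc25 (0.276). For Stat3 they were Rin2 (0.106), Incenp (0.126) and Prdx1l1 (0.130), and for Il6r Tifa (0.122), Ehd4 (0.128) and Tsku (0.154). Osm was nearest to Serpinb8 (0.345), Emp1 (0.347) and Bcl3 (0.348), the last of which is in the target list, and Lif to Tnfsf9 (0.263), Ccr7 (0.271) and Sbno2 (0.297). Osmr was nearest to B4galt1 (0.243), C1h16orf54 (0.255) and Zfp36 (0.256), and Lifr to Smim17 (0.232), Bicd1 (0.237) and Klhl15 (0.284). Il6 was nearest to Klrb1b (0.289), Il15ra (0.294) and Ticam2 (0.316). The flat Il6st was nearest to Srsf1 (0.056), Pnn (0.065) and Mier1 (0.081). These values describe the same rats that gave the levels above, and no member was among another member's 3 nearest genes.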

How the data were processed

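Poly(A) libraries of rat striatum (TruSeq Stranded mRNA) were sequenced as paired-end reads. Unfiltered counts of reads for each gene were deposited, together with TPM that the authors computed by dividing counts by gene length and scaling them to the same sum in each rat. The study gives more Normal rats than the 2 used here. The submitters' processing notes name bcl2fastq, fastp 0.20.0, FastQC 0.11.9, MultiQC, HISAT2 2.1.0, SAMtools 1.9, featureCounts of Subread, DESeq2 and the build mRatBN7.2. The annotation version and the strand setting of the counting are not given in the sources used here.

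edgeR 4.0.16 (R 4.3.3) was used for the filter on low counts (filterByExpr), the TMM scaling and the quasi-likelihood test, fitted jointly to the 11 rats of 4 groups. Benjamini-Hochberg adjustment covered 15742 genes, and the threshold was 0.05. The study's methods name DESeq2, which was an alternative. Standard errors were obtained by dividing each log2 fold change, without its sign, by the root of its F value. The common dispersion was 0.0691, and library totals ranged from 6701301 to 18817645. Groups of 2 or 3 rats limit the tests to large changes. The ratio of Osmr to Lifr was compared by a two-sided exact permutation test. The methods were tested on simulated data.

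The members and lists were chosen with earlier results of these data known. All members are named. Of the pathway and target lists, in each comparison the 4 or fewer genes with the largest change past the test, up to 2 with the smallest change, and genes against the direction of most of their list were to be named, and further genes were named after their values were seen. The likeness of patterns used log2 CPM with a prior count of 2. Of 24 pathway genes 23 were in the table, and the other was not analysed here. One pathway gene that enters the counts is not reported by name here.

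Alternatives were DESeq2 size factors, library size alone, TMM without 25 hemoglobin and mitochondrial genes, no filter, at least 10 counts in every rat, a fold cutoff of 1 on the log2 scale beside the adjusted p, the compared groups alone, single rats left out, a replicate block, the Wald test of DESeq2 1.42.0 and limma 3.58.1 with trend on log2(TPM + 1). A correction for gene length, with and without IS-HA replicate 2, was added after the data were seen, with lengths taken from the ratio of counts to TPM. Promoter windows for 8 members, from RefSeq (GRCr8), were matched by symbol, and those of Il6 and Il11, which start at the outermost start of the gene, were printed. Plots were made in Python 3.11.15 with matplotlib 3.10.9.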

Additional observations from a re-analysis of the deposited data

How the results depend on the processing

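The main limits are the 2 Normal rats, the 0 to 4 reads of Il6 and Osm in them, the 10 to 17 reads of Lifr in IS, the small IS-HA replicate 2 and the trend with gene length. Library size in place of TMM shifted the median of all genes by 0.13 to 0.14 (log2) against Normal. Over members and comparisons, 919 alternative values kept direction and side of the threshold, 20 passed newly, 18 no longer passed and 11 changed sign, all of Il6st near 0.

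Requiring 10 counts in every rat, which removes Il6, Lif, Osm and Lifr from the test, left 4 members passing against Normal in IC, 4 in IS and 4 in IS-HA. DESeq2's Wald test called 4 members and 4 targets in IS against IC, where edgeR called 0, and 6 pathway genes in IC against Normal, where edgeR called 3. For the latter, library size alone gave 7, only the groups compared 9 and limma 6, and only the groups compared gave 2 in IS-HA against Normal, where edgeR called 9. With the gene length correction and without IS-HA replicate 2, 3 members and 3 targets passed in IS against IC, 1 member and 1 target in IS-HA against IS, and 6 and 5 pathway genes in IC and IS-HA against Normal.

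Leaving out each rat, members passing ranged from 4 to 8 in IC, 8 to 8 in IS and 6 to 8 in IS-HA against Normal, from 0 to 3 in IS against IC and from 0 to 1 in IS-HA against IS. The 4 came without Normal replicate 3, and the 3 and the 1 without IS-HA replicate 2. Pathway genes ranged from 1 to 9 in IC, 4 to 12 in IS and 0 to 9 in IS-HA against Normal, lowest in each without Normal replicate 3, and in IC highest without IS-HA replicate 2. Targets ranged from 9 to 14 in IC, lowest without Normal replicate 1 and likewise without 3, 12 to 15 in IS and 11 to 15 in IS-HA against Normal, from 0 to 5 in IS against IC and from 0 to 3 in IS-HA against IS, with the 5 and the 3 without IS-HA replicate 2. The difference in the log2 ratio of Osmr to Lifr ranged from 1.59 to 2.15 (IS against IC) and from -2.42 to -1.35 (IS-HA against IS).

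Il6st changed sign in IS against IC with the gene length correction (0.16, and 0.16 without IS-HA replicate 2). In IS-HA against IS it did so with DESeq2 size factors (-0.024), DESeq2's Wald test (-0.021), the gene length correction (-0.16, and -0.28 without IS-HA replicate 2), and over single rats left out it ranged from -0.062 to 0.088. The causes of these changes were not tested.

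Replicate numbers belong to different animals. Deviations of same-numbered IC and IS rats correlated at -0.34 to 0.356, so the numbers were not taken to pair rats. With the replicate block, 6, 7 and 7 members, 1, 3 and 3 pathway genes and 10, 14 and 14 targets passed in IC, IS and IS-HA against Normal, and 0 of each list in IS against IC and in IS-HA against IS. Il6st in IS-HA against IS stood at -0.051 with the block.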
